A study of Mus musculus with 20 samples.

Results

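Bone matrix and osteocyte genes were followed in the intervertebral discs of old mice, in the soft centre of the disc (nucleus pulposus, NP) and in its lamellar outer ring (annulus fibrosus, AF). The 10 genes, picked by symbol from the 51789 genes of the table, were Runx2, Sp7, Bglap, Bglap2, Ibsp, Spp1, Dmp1, Mepe, Phex and Sost. BL6 mice received intraperitoneal injections each week from 18 months of age, for 6 months, and were killed at 24 months. The injections held DMSO alone (vehicle) or MDL-800 in the same amount of DMSO. MDL-800 is a small molecule used to activate SIRT6, a deacylase that acts on chromatin, and the series title concerns SIRT6 activation and the aging disc. The 20 libraries formed 4 groups of 5, which cross tissue (NP or AF) with treatment (vehicle or MDL-800), all from mice of the same strain and age that carried no stated genetic change. The labels class the samples as primary cells, while the protocol describes tissue dissected under a microscope and stabilised at once. They do not say whether a library came from 1 mouse or a pool, so the p-values below measure the spread between these libraries only.

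Bone is laid down by osteoblasts, whose differentiation needs the transcription factors Runx2 and Sp7 (osterix). Osteoblasts fill the collagen they secrete with non-collagenous proteins, among them osteocalcin (Bglap and its copy Bglap2), bone sialoprotein (Ibsp) and osteopontin (Spp1). Cells that become buried in the mineral, the osteocytes, express Dmp1, Mepe and Phex, which bear on mineralization and phosphate handling, and Sost, which encodes sclerostin, a secreted inhibitor of Wnt signalling. In the disc, the AF attaches to the vertebral bone and endplate, while the NP derives from the notochord. Spp1 is the widest in its expression of these genes, being made also by chondrocytes, macrophages and other cells.

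Several of these genes lie side by side in the genome. In GENCODE M21 on GRCm38 (the assembly called mm10, which the submitters' processing notes name), Dmp1 (chr5:104202613-104214102), Ibsp (chr5:104299171-104311469), Mepe (chr5:104325329-104338611) and Spp1 (chr5:104435118-104441050) sit on the plus strand in a cluster that begins with Dspp and spans 270.3 kb. The genes of this cluster encode the SIBLING family of acidic matrix proteins. Bglap (chr3:88383501-88384464) and Bglap2 (chr3:88377736-88378699) lie on the minus strand of chromosome 3 beside Bglap3, and these osteocalcin genes span 15.8 kb. Sost (chr11:101962458-101967015), Phex (chrX:157162075-157415312), Sp7 (chr15:102356606-102367182) and Runx2 (chr17:44495987-44814797) are on the minus strand of other chromosomes. All 10 are annotated as protein-coding.

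The coding sequences of Bglap and Bglap2 are shown because they limit how far the values of this pair can be told apart. Each holds 285 bases before the stop codon, and they are identical at 281 of them (98.6%). Capitals mark the 4 bases that differ between them, with the sequences read from the GENCODE M21 transcripts.
Bglap: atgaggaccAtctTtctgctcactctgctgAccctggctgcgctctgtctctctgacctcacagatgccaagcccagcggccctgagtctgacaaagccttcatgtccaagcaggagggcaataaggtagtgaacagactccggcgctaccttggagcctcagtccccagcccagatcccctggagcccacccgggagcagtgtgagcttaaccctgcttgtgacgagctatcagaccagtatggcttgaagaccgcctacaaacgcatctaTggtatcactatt
Bglap2: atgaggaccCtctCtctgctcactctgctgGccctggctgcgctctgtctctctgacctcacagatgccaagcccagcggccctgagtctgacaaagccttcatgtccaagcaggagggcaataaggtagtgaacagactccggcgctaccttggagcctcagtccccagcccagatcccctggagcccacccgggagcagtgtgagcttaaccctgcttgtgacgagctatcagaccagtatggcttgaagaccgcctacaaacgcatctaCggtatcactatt
Of the 391 windows of 50 bases in the Bglap transcript, 292 (74.7%) also occur in the Bglap2 transcript. How the authors assigned reads that match both copies is not given in the sources used here, so the division of reads between Bglap and Bglap2 is uncertain throughout. Bglap3 differs from Bglap at 13 of the 285 coding bases and shared 80 of the 391 windows.

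Promoters are shown for 4 of the genes. In vehicle mice Bglap, Mepe and Sost were lower in NP than in AF, and Spp1 was not, as described below. Runx proteins bind a short core, TGTGGT or its reverse complement ACCACA, which is in capitals in the 250 bases before each start site (RefSeq, GRCm38.p6). Of the 10 genes, 8 had a RefSeq promoter window of 250 bases before and 50 after the start. These 8 had 10 windows, since Dmp1 and Spp1 each had 2. The core occurred on either strand in 5 of the 10 windows (of Bglap, Dmp1, Mepe, Spp1 and Runx2), against 16.8% of the 32851 windows of all genes, and the other window of Dmp1 and of Spp1 did not hold it.
Bglap, chr3:88384467-88384716, minus strand: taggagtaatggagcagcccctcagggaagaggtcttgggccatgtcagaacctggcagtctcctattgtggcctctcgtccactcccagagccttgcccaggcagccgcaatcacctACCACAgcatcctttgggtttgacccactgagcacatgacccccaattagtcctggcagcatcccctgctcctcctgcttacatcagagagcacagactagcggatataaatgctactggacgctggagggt
Mepe, chr5:104325079-104325328, plus strand: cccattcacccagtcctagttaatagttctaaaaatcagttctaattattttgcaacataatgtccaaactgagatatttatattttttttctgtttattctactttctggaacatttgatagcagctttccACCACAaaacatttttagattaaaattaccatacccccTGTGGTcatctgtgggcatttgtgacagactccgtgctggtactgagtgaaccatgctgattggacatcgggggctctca
Spp1, chr5:104434861-104435110, plus strand: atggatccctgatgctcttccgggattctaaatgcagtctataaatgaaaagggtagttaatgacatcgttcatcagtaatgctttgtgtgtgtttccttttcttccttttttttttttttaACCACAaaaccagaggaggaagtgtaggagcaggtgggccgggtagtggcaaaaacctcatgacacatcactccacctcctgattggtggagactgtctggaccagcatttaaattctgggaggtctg
Sost, chr11:101967016-101967265, minus strand: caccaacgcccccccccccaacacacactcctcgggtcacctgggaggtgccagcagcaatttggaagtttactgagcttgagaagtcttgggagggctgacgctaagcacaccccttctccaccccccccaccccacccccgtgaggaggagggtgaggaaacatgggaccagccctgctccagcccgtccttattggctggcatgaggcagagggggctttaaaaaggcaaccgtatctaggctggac
Bglap and Spp1 each held the core at 1 place and Mepe at 2, while these letters did not occur in the bases shown for Sost. The GC box GGGCGG (or CCGCCC) was in no window of the 8 genes and in 35.7% of all windows. Whether Sp7 binds this element was not tested. A match of letters is a description of the sequence and was not tested as a binding site.

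Values are FPKM (fragments scaled to transcript length and to the mapped fragments of the library), which are per length and so can be set beside each other between genes, after a scaling of each library by a factor between 0.933 and 1.06. Read counts were not used here; the smallest steps between values of short genes gave an estimated depth of 12.7 M to 22.3 M fragments per library, with the lowest in NP MDL-800 library 19. At these depths a single read was worth 0.0173 to 0.0306 FPKM for Dmp1 and 0.0237 to 0.042 for Sost, so levels below 0.1 rest on few reads. The tissue labels were checked on markers: 7 of 7 NP markers tested (Krt8, T and Krt18 among them, keratins and the notochord factor brachyury) were higher in NP than in AF of vehicle mice, and 5 of 6 AF and tendon markers (Tnmd, Angptl7 and Thbs4 among them) were lower. The NP marker Noto was too low to be tested, and the AF marker Fmod, named after its value was seen, was not called (log2 difference 0.48, limma adjusted p = 0.0946). Under MDL-800, 6 of 7 NP markers were called higher in NP and 4 of 6 AF and tendon markers lower. Over all genes tested, 21.8% were called higher and 33.9% lower in NP of vehicle mice, and 25.6% and 37.2% in NP under MDL-800. Tnmd passed the filter on low values (1 FPKM in at least 5 libraries) only through the AF libraries. It had to be higher in AF to be tested, so the marker counts are not read against these shares. These calls are of groups, and single libraries varied. The NP markers summed to 15087 in AF vehicle library 9, against 2491 to 7106 in the other AF vehicle libraries. In NP vehicle they summed to 25616 to 30792. Most of the NP vehicle sums was Car3, with a mean of 20344, and Car3 was at 10912 in AF vehicle library 9. Krt8, T and Krt18 also had their highest AF vehicle values in that library. The skeletal muscle markers summed to 1323 in NP vehicle library 3, inside the AF vehicle range of 1052 to 8808. Carry-over between tissues was not tested.

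**Figure D1:**
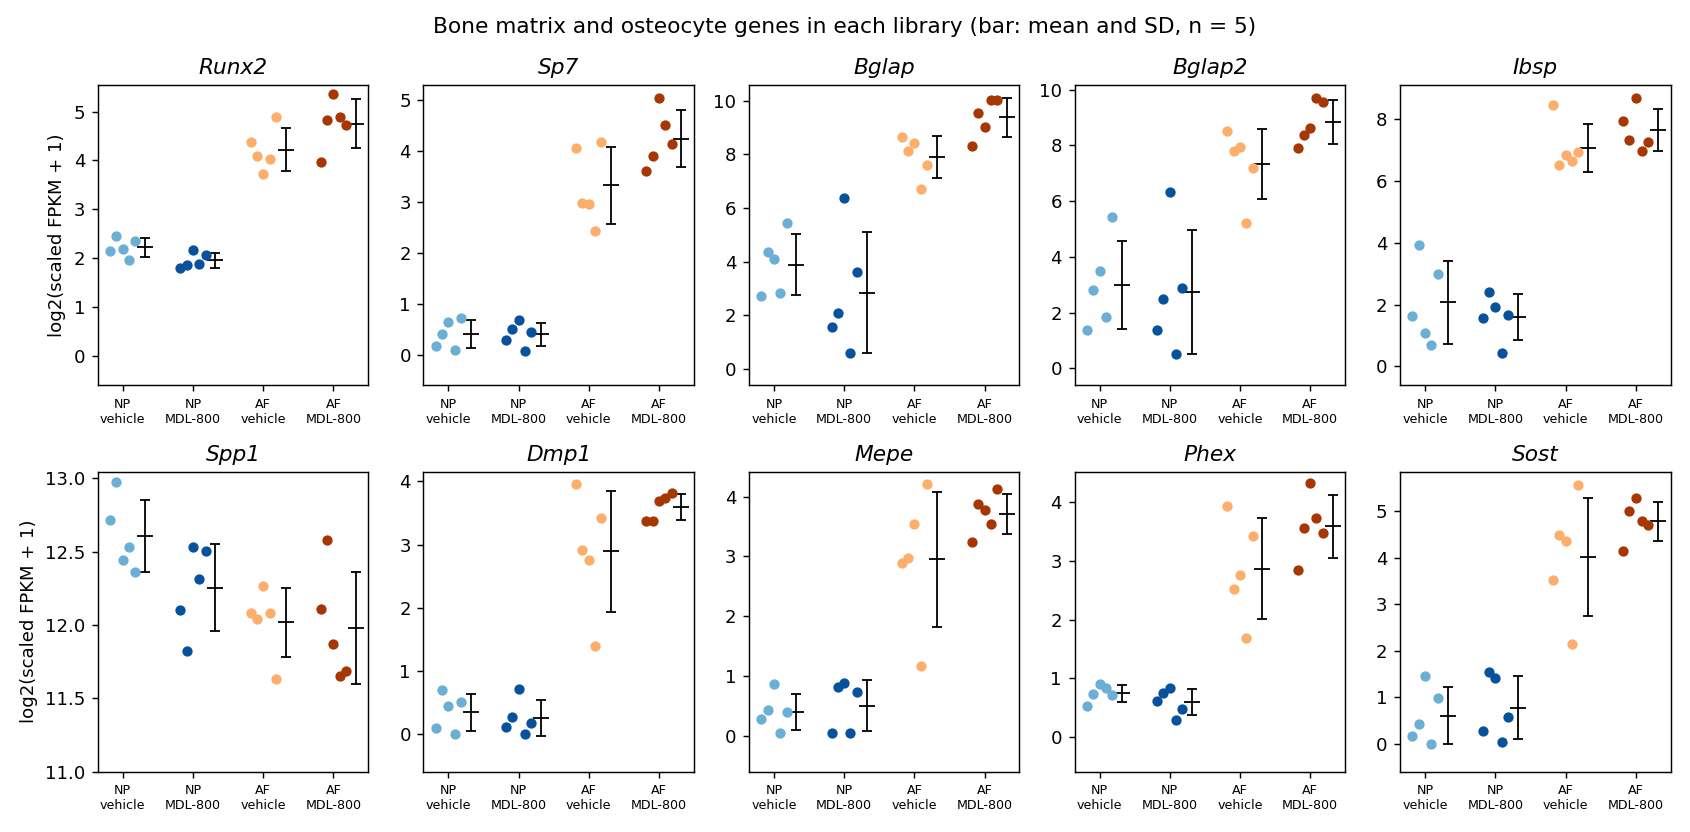
Levels of the 10 genes in the 20 libraries, as log2(scaled FPKM + 1) on a vertical axis of its own for each gene, with points for libraries and the bar and line for the mean and SD of each group of 5. The AF libraries sit above the NP libraries for 8 of the 10 genes in both treatments; Bglap2 overlaps through AF vehicle library 12, and Spp1, whose axis does not start at 0, is not higher in AF.

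In vehicle mice, 9 of the 10 genes were lower in NP than in AF, by 2.00 to 5.01 on the log2 scale, and Spp1 was the only gene of the 10 with a higher mean in NP. The 9 lower calls (limma on log2(scaled FPKM + 1), Benjamini-Hochberg adjusted p under 0.05 over 16383 genes) are given beside a background in which 33.9% of all genes tested were called lower and 21.8% higher. A scaling by quantile normalization moved the median of all genes from a log2 difference of -0.08 to 0.19 and turned the split of all calls from 3577 higher and 5550 lower to 6310 higher and 4194 lower, with the same 9 genes called lower. All 10 passed the filter on low values (1 FPKM in at least 5 libraries), but 5 of them (Dmp1, Mepe, Phex, Sp7 and Sost) passed only through the AF libraries. These 5 had to be higher in AF to be tested at all, so the count of 9 is not read against the background. Of the 5 that reached the minimum on NP libraries alone (Runx2, Bglap, Bglap2, Ibsp and Spp1), 4 were called lower in NP and Spp1 was not. RNA was taken from whole dissected tissue, so a smaller number of expressing cells and less RNA per cell cannot be told apart here.

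Of the transcription factors, Runx2 was present in both tissues. Its levels were 3.42, 4.47, 3.55, 2.91 and 4.07 in the NP vehicle libraries 1, 2, 3, 5 and 6. In the AF vehicle libraries 8, 9, 10, 12 and 13 they were 19.7, 16.0, 12.3, 15.3 and 28.7. The groups did not overlap, with 3.68 ± 0.602 against 18.4 ± 6.36 (mean ± SD, n = 5 each), and Runx2 had the smallest adjusted p of the 10 genes (log2 difference -2.00, SE 0.20, limma adjusted p = 2.22e-05). Sp7, which acts downstream of Runx2, was at 0.118, 0.320, 0.567, 0.0592 and 0.652 in the same NP libraries. It was at 15.8, 6.91, 6.83, 4.41 and 17.0 in the AF libraries. All AF values thus lay above all NP values, and the log2 difference was -2.92 (SE 0.32, limma adjusted p = 4.08e-05). The ratio of the group means was 29.7 for Sp7 and 4.99 for Runx2. Exons of Runx2 overlap those of Runx2os1 on the opposite strand by 519 bases; the library kit keeps strand, but whether the counting used it is not given in the sources used here.

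Of the osteoblast matrix genes among the 10, Bglap and Bglap2 were the highest in AF after Spp1, and both varied widely in NP. Bglap was at 5.54, 19.3, 16.2, 6.12 and 42.6 in the NP vehicle libraries and at 396, 280, 346, 104 and 191 in those of AF. Its lowest AF library, 12, was above its highest NP library, 6 (log2 difference -4.01, SE 0.53, limma adjusted p = 0.000116). For Bglap2 the NP values were 1.59, 5.94, 10.3, 2.62 and 41.9, and the AF values were 362, 219, 247, 36.6 and 144. Here the groups overlapped, since AF library 12 was below NP library 6, although the gene was called (log2 difference -4.34, SE 0.79, limma adjusted p = 0.000813). Ibsp, a nucleator of mineral, had the widest tissue difference of the 10 on the log2 scale, with 2.10, 14.4, 1.13, 0.631 and 6.93 in NP and 349, 91.2, 115, 100 and 121 in AF. Every AF value was above every NP value (log2 difference -5.01, SE 0.61, limma adjusted p = 6.61e-05). The mean level of Ibsp in AF, 155 ± 109, rested in part on library 8, and without that library the log2 difference was still -4.67.

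Spp1 stood apart. It was at 6725, 8052, 5567, 5921 and 5271 in the NP vehicle libraries and at 4334, 4203, 4929, 4327 and 3169 in the AF vehicle libraries, which ranks its mean 5th of 51789 genes in NP and 7th in AF. All 5 NP libraries were above all 5 AF libraries, a pattern seen in this direction for 15.1% of all genes tested, but the difference did not pass the threshold (log2 difference 0.59, SE 0.25, limma adjusted p = 0.0679). With the spread taken from all 4 groups the adjusted p was 0.0263, and without the mean-variance trend it was 0.00724. Without the filter it was 0.402, and quantile normalization gave a difference of 0.31 with an adjusted p of 0.168. Spp1 made up 98.2% to 99.8% of the summed FPKM of the 10 genes in NP vehicle libraries and 78.5% to 94.2% in AF. Its exons overlap those of Gm42793 on the same strand by 309 bases.

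The osteocyte genes were low in NP, where 1 vehicle library exceeded 1 FPKM for Sost and none for the other 3. Dmp1, a matrix protein of osteocytes, was at 0.0643, 0.619, 0.354, 0 and 0.425 in the NP vehicle libraries, whereas the AF libraries held 14.5, 6.54, 5.77, 1.63 and 9.75. Like Mepe, Phex, Sost and Sp7 it was tested only through its AF values. Its AF range did not touch its NP range (log2 difference -2.54, SE 0.40, limma adjusted p = 0.000312). Mepe, whose product carries an acidic peptide that inhibits mineralization, was at 0.214, 0.351, 0.819, 0.0296 and 0.316 in NP and reached 6.43, 6.81, 10.6, 1.25 and 17.5 in AF (log2 difference -2.55, SE 0.46, limma adjusted p = 0.000788). Again no NP library reached the lowest AF library, 12. Phex, a membrane endopeptidase whose loss causes phosphate wasting, was the steadiest of these genes in NP, at 0.429, 0.660, 0.860, 0.779 and 0.642. In AF it was at 14.3, 4.75, 5.81, 2.22 and 9.73 (log2 difference -2.13, SE 0.35, limma adjusted p = 0.000424). Sost was at 0.118, 0.351, 1.76, 0 and 0.978 in NP but 10.5, 21.6, 19.5, 3.43 and 46.6 in AF, so that the highest NP library was below the lowest AF library (log2 difference -3.41, SE 0.55, limma adjusted p = 0.000388). In all, 8 genes lay lower in NP with no overlap (25.9% of all genes tested did), 5 of them tested only through AF. The fold changes of these low genes are understated by the pseudocount of 1 FPKM: with 0.1 in its place the differences were -4.34 for Dmp1, -4.13 for Mepe, -3.04 for Phex and -5.03 for Sost.

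**Figure D2:**
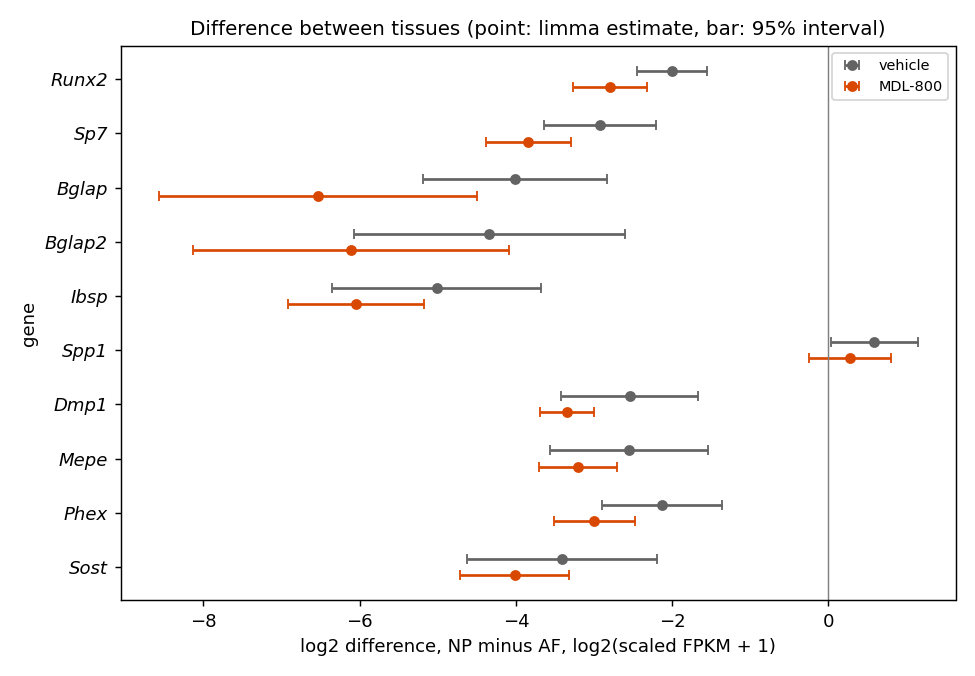
Log2 difference NP minus AF of the 10 genes in vehicle mice and in MDL-800 mice, with 95% intervals from limma on log2(scaled FPKM + 1). The intervals of 9 genes lie below 0 in both, and those of Spp1 lie at 0.59 and 0.27 with the second crossing 0.

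The tissue difference was present in MDL-800 mice as well. The same 9 genes were called lower in NP, against 37.2% of all genes tested, with no overlap between the groups for any of the 9 (30.5% of all genes tested were lower with no overlap). Over all genes 4188 were called higher and 6102 lower, which quantile normalization turned to 6804 and 4544, with the same 9 called. The differences ran from -2.80 for Runx2 (SE 0.21, limma adjusted p = 2.65e-06) to -6.54 for Bglap (SE 0.92, limma adjusted p = 0.000121). Of the 5 genes that passed the filter on NP libraries alone, 4 were again called lower. In these mice the Bglap levels were 1.94, 3.25, 82.2, 0.497 and 11.3 in NP libraries 15, 18, 19, 20 and 22, and 319, 733, 522, 1045 and 1035 in AF libraries 25, 27, 28, 29 and 30. NP library 19 was thus the single high value in NP and still below all of AF. Ibsp was at 1.98, 4.38, 2.82, 0.349 and 2.19 in NP libraries and at 248, 161, 415, 126 and 154 in AF (log2 difference -6.04, SE 0.39, limma adjusted p = 1.37e-06). For Dmp1, one of the genes tested only through its AF values, the log2 difference was -3.34 (SE 0.16, limma adjusted p = 7.11e-07), with 0.0796, 0.200, 0.646, 0 and 0.124 in NP against a narrow 9.34, 9.41, 11.8, 12.3 and 13.1 in AF. Between the widest and the narrowest difference lay Bglap2 at -6.11, Sost at -4.02, Sp7 at -3.84, Mepe at -3.21 and Phex at -3.00, with limma adjusted p-values from 1.30e-06 to 0.000183. Spp1 was at 4396, 3614, 5905, 5097 and 5801 in NP and 4421, 6130, 3735, 3211 and 3298 in AF, and here the groups overlapped (log2 difference 0.27, 95% interval -0.26 to 0.80, limma adjusted p = 0.34). It made up 97.1% to 99.9% of the summed FPKM of the 10 genes in NP MDL-800 libraries and 60.2% to 83.5% in AF MDL-800 libraries.

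In NP, no difference between MDL-800 and vehicle passed the test for any of the 10 genes. None was called (41 genes, 0.25% of those tested, were called), none was at an unadjusted p under 0.05 (14.1% of all genes were), and the MDL-800 and vehicle libraries overlapped for all 10 (4.5% of all genes did not overlap). The count at an unadjusted p under 0.05 became 1 with FPKM as deposited, with quantile normalization, without the trend and without vehicle library 5. It was 2 without MDL-800 library 19. The log2 differences, MDL-800 minus vehicle, ran from -1.04 for Bglap to 0.16 for Sost, with a median of -0.21 against -0.03 over all genes tested. The sign was negative for 8 of the 10, as for 57.4% of all genes. For Bglap the spread left a 95% interval from -3.22 to 1.14 (SE 0.99, limma adjusted p = 0.695), so changes in either direction inside that interval are compatible with these libraries. The Bglap difference was -1.92 without MDL-800 library 19, -0.48 without MDL-800 library 20 and -0.65 when vehicle library 6 was left out. Bglap2 was at 1.61, 4.66, 80.2, 0.434 and 6.34 in the NP MDL-800 libraries, with library 19 far above the others (log2 difference -0.26, 95% interval -2.62 to 2.09, limma adjusted p = 0.945). The more even Runx2 was at 2.50, 2.63, 3.48, 2.66 and 3.18 (log2 difference -0.26, SE 0.12, limma adjusted p = 0.36), and Spp1 differed by -0.35 (95% interval -0.83 to 0.13, limma adjusted p = 0.504). Sp7, at 0.219, 0.421, 0.605, 0.0529 and 0.360, gave the smallest difference (-0.0044, SE 0.16, limma adjusted p = 0.993). The osteocyte genes were low in these libraries too, with Mepe at 0.0299, 0.768, 0.848, 0.0317 and 0.659, Phex at 0.528, 0.673, 0.787, 0.222 and 0.391, and Sost at 0.209, 1.91, 1.69, 0.0317 and 0.494. Their log2 differences were 0.10 (SE 0.21), -0.15 (SE 0.12) and 0.16 (SE 0.36), with limma adjusted p-values of 0.877, 0.640 and 0.886. Ibsp differed by -0.46 (SE 0.61, limma adjusted p = 0.793) and Dmp1 by -0.09 (SE 0.17, limma adjusted p = 0.853). Dmp1, Mepe, Phex, Sost and Sp7 lay mostly below 1 FPKM in NP, so the pseudocount of 1 FPKM draws their differences and SEs toward 0. Over the alternative runs that kept all libraries, Dmp1 ran from -0.33 to -0.09, Phex from -0.38 to -0.15 and Sost from 0.16 to 0.43. Mepe ran from 0.10 to 0.12 and Sp7 from -0.01 to 0.04.

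In AF, 9 of the 10 genes had a higher mean log2 level under MDL-800 than under vehicle, but none passed the threshold. No gene of the 16383 was called in this comparison (0%), and the limma adjusted p of each of the 10 was 1. At an unadjusted p under 0.05 there were 3 of the 10, all higher (Bglap, Bglap2 and Sp7), against 0.922% of all genes tested in this direction and 270 genes in both. This count moved with single libraries. Leaving out vehicle library 8 or 13 raised it to 6; leaving out vehicle library 9, 10 or 12 or MDL-800 library 28 or 30 lowered it to 2, and leaving out MDL-800 library 29 to 1. For all 10 the 2 groups overlapped (0.226% of all genes did not). The median log2 difference was 0.74, against 0.01 over all genes, and 52.6% of all genes had a positive sign. Most of the 10 genes vary together between AF libraries, as described below, so their signs are not independent of each other. Bglap and Bglap2 share much of their sequence, so they do not count as separate genes. The 10 genes were also chosen with earlier results of these data known, so the count of 3 is not read against the background.

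The osteocalcin pair had the widest differences in AF. Bglap was at a mean of 263 ± 118 scaled FPKM under vehicle and 731 ± 318 under MDL-800 (SD, n = 5 each), a log2 difference of 1.48 (SE 0.42, 95% interval 0.54 to 2.42, limma adjusted p = 1). Library 25 of the MDL-800 group, at 319, lay within the vehicle range of 104 to 396, and the other 4 lay above it. Bglap2 was at 238, 333, 390, 837 and 761 under MDL-800, of which libraries 25 and 27 lay within the vehicle range (log2 difference 1.51, SE 0.59, 95% interval 0.21 to 2.80, limma adjusted p = 1). Sp7 was at 11.2, 14.0, 32.2, 21.8 and 16.6, a log2 difference of 0.92 (SE 0.38, 95% interval 0.09 to 1.75, limma adjusted p = 1). Runx2, at 14.7, 27.3, 40.3, 28.5 and 25.5, overlapped the vehicle libraries through libraries 25, 27, 29 and 30 (log2 difference 0.53, SE 0.27, limma adjusted p = 1). Libraries 29 and 30, the highest for Bglap, were not the highest for Sp7 and Runx2, which peaked in library 28.

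The osteocyte genes lay inside the vehicle range in every AF MDL-800 library, except for Phex in library 28. Mepe was at 8.47, 13.7, 12.7, 10.6 and 16.4 (log2 difference 0.76, SE 0.47), Phex at 6.15, 10.8, 19.0, 12.3 and 10.2 (0.72, SE 0.40) and Sost at 16.8, 31.0, 38.2, 26.8 and 25.1 (0.77, SE 0.53), each with a limma adjusted p of 1. Dmp1 differed by 0.71 (SE 0.39, limma adjusted p = 1), with its narrow MDL-800 libraries inside the vehicle range of 1.63 to 14.5. Vehicle library 12, the lowest for 7 of the 10 genes, bears on these differences: without it those of Dmp1, Mepe, Phex and Sost were 0.33, 0.31, 0.43 and 0.30. Ibsp differed by 0.57 (SE 0.41, limma adjusted p = 1); leaving out vehicle library 8 gave 0.91 and leaving out MDL-800 library 28 gave 0.30. Spp1 differed by -0.04 (95% interval -0.63 to 0.55, limma adjusted p = 1).

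**Figure D3:**
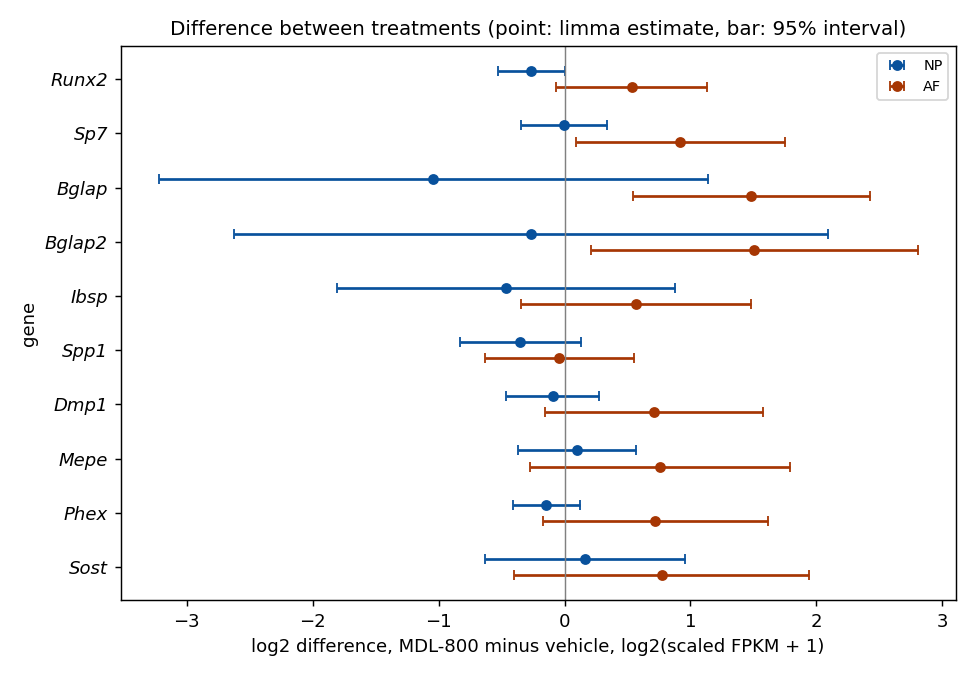
Log2 difference MDL-800 minus vehicle of the 10 genes in NP and in AF, with 95% intervals from limma on log2(scaled FPKM + 1). In AF the intervals of Bglap, Bglap2 and Sp7 lie above 0 before adjustment over all genes; the widest intervals in NP are those of Bglap and Bglap2.

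No difference in the treatment effect between the tissues passed the test for any of the 10 genes. In the test of the difference itself (NP effect minus AF effect, all 4 groups in a single limma fit), 0 genes of the 16383 were called (0%), and each of the 10 had an adjusted p of 0.9997. All 10 differences were negative, as for 54.2% of all genes tested. At an unadjusted p under 0.05 there were 3 of the 10 (Runx2, Sp7 and Bglap), against 1.61% of all genes in this direction and 611 genes in both. That count was 5 without AF vehicle library 8 and 1 without any of NP vehicle libraries 2, 3 and 6, NP MDL-800 libraries 15, 18 and 20, AF vehicle library 12 and AF MDL-800 libraries 29 and 30. The 10 differences ran from -0.31 for Spp1 to -2.53 for Bglap (SE 1.14), with Runx2 at -0.80 (SE 0.30) and Sp7 at -0.92 (SE 0.43). Since the genes were chosen with earlier results of these data known, the count of 3 is not read against the background here either.

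The ratio of Bglap to Bglap2 is a further measure of the pair, within the limit set by their shared sequence. Its median was 1.33 in AF vehicle (1.09 to 2.84 over the libraries) and 1.34 in AF MDL-800 (1.25 to 2.2). In NP it was 2.33 in vehicle (1.02 to 3.49) and 1.15 under MDL-800 (0.698 to 1.79), with all 4 groups overlapping. Bglap3, the third copy, was far lower in AF, at 2.07 to 4.13 in vehicle and 2.60 to 11.6 under MDL-800, and its tissue difference in vehicle mice was -0.17 (limma adjusted p = 0.375).

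**Figure D4:**
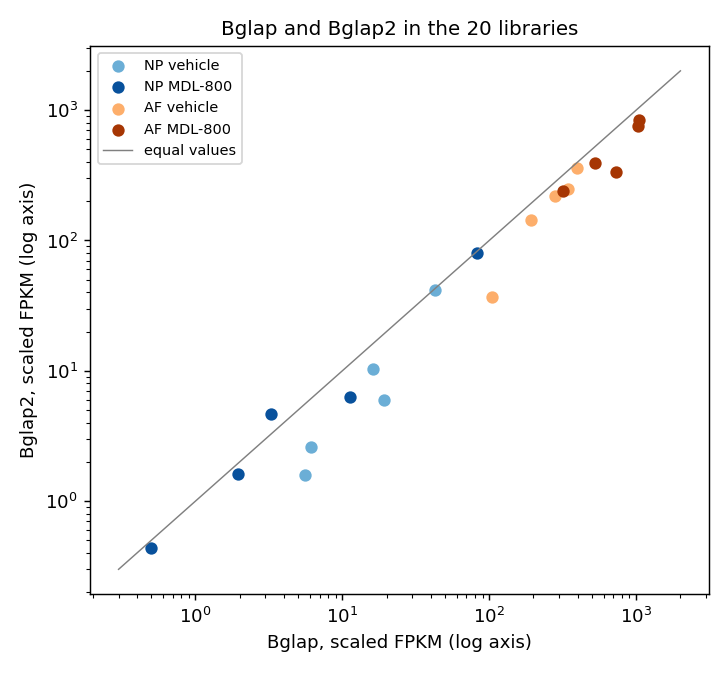
Bglap against Bglap2 in the 20 libraries, in scaled FPKM on 2 log axes, with the line of equal levels. The AF libraries lie at 104 or more for Bglap; NP library 19 (82.2 and 80.2) and NP library 6 (42.6 and 41.9) lie apart from the other NP libraries.

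Other genes of the same cell types were lower in NP too, though not all. Of 22 other osteoblast genes 21 were tested, of which 15 were lower in NP of vehicle mice, with a median log2 difference of -1.86. The smallest p-values were those of Cdh11, an osteoblast cadherin (-3.79), Omd, the keratan sulfate proteoglycan osteomodulin (-4.43), and Twist1, a factor that restrains Runx2 (-2.59). Of 8 other osteocyte-associated genes tested, 3 were lower and 4 higher, with a median of -0.18. Kcnk2, a potassium channel, was higher in NP (1.55), while Capg, an actin-capping protein (-1.30), and the phosphatase Ptprz1 (-1.66) were lower. Many genes of this second list are expressed in other cells as well. Fgf23 and Dspp were not tested, and Dspp was listed at 0 in every library. Of 9 receptors for sclerostin and osteopontin, 5 were lower in NP and 3 higher. The integrin subunits Itga9 (-2.82) and Itga4 (-3.05) were lower and the Wnt co-receptor Lrp6 (1.16) was higher. Twist1, Ptprz1, Itga9 and Itga4 passed the filter on low values only through the AF libraries, so they had to be higher in AF to be tested. The counts of these lists are therefore not read against the background, where 33.9% of all genes tested were called lower and 21.8% higher.

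Markers of other cells moved with the bone genes between the tissues. All 7 osteoclast markers tested were lower in NP (median -1.97, with Atp6v0d2 at -2.94, Mmp9 at -3.76 and Ctsk at -1.97), while Calcr and Ocstamp were too low to be tested. All 7 red blood cell markers (median -3.78), 7 neutrophil markers (-4.03), 7 macrophage markers (-3.40), 7 skeletal muscle markers (-4.51) and 4 hypertrophic chondrocyte markers (-3.00, with Mmp13, Col10a1 and Panx3 among them) were lower in NP as well. The summed osteoclast markers were 56.6 to 112 in NP vehicle and 430 to 824 in AF vehicle, those of neutrophils 195 to 2972 and 6939 to 18132, and those of muscle 11.0 to 1323 and 1052 to 8808. The part of these cells and tissues in the tissue difference of the 10 genes was not tested. Some of the markers, Atp6v0d2 and Panx3 among them, passed the filter on low values only through the AF libraries. Their counts are therefore not read against the 33.9% of all genes tested that were called lower in NP of vehicle mice. None of these markers was called in either treatment comparison. In AF, MDL-800 minus vehicle, the medians were 0.41 for the other osteoblast genes (21 of 21 positive, 5 at an unadjusted p under 0.05), 1.07 for the hypertrophic chondrocyte markers (4 of 4 positive, 2 at an unadjusted p under 0.05), 0.01 for osteoclast, 0.25 for red blood cell, 0.19 for neutrophil, -0.28 for macrophage and -0.40 for muscle markers. Over all genes, 52.6% were positive and 1.65% were at an unadjusted p under 0.05 in either direction. Genes of the same cell type can vary together, so these counts are not of independent genes. The summed markers of AF MDL-800 libraries, 383 to 1057 for osteoclasts, 5826 to 31504 for neutrophils and 862 to 9033 for muscle, spanned wider ranges than those of AF vehicle. Those of macrophages were 265 to 531 in AF vehicle and 282 to 476 in AF MDL-800, and those of red blood cells 635 to 2074 and 598 to 3222. Their part in the treatment differences of the 10 genes was not tested. Alpl, the alkaline phosphatase of mineralizing cells, differed by 1.05 and Panx3, a channel of hypertrophic chondrocytes and osteoblasts, by 1.72 (limma adjusted p = 1 for both). In NP the parathyroid hormone receptor Pth1r was higher in all 5 MDL-800 libraries than in all 5 vehicle libraries (0.68, limma adjusted p = 0.0722). Over all genes, 3.5% were higher with no overlap. The groups were barely apart, with the highest vehicle library at 62.5 and the lowest MDL-800 library at 63.4. In AF the mean log2 level of Pth1r was 5.73 under vehicle and 6.36 under MDL-800, with overlap. The kinase Fam20c differed by 0.58 in NP (limma adjusted p = 0.115).

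**Figure D5:**
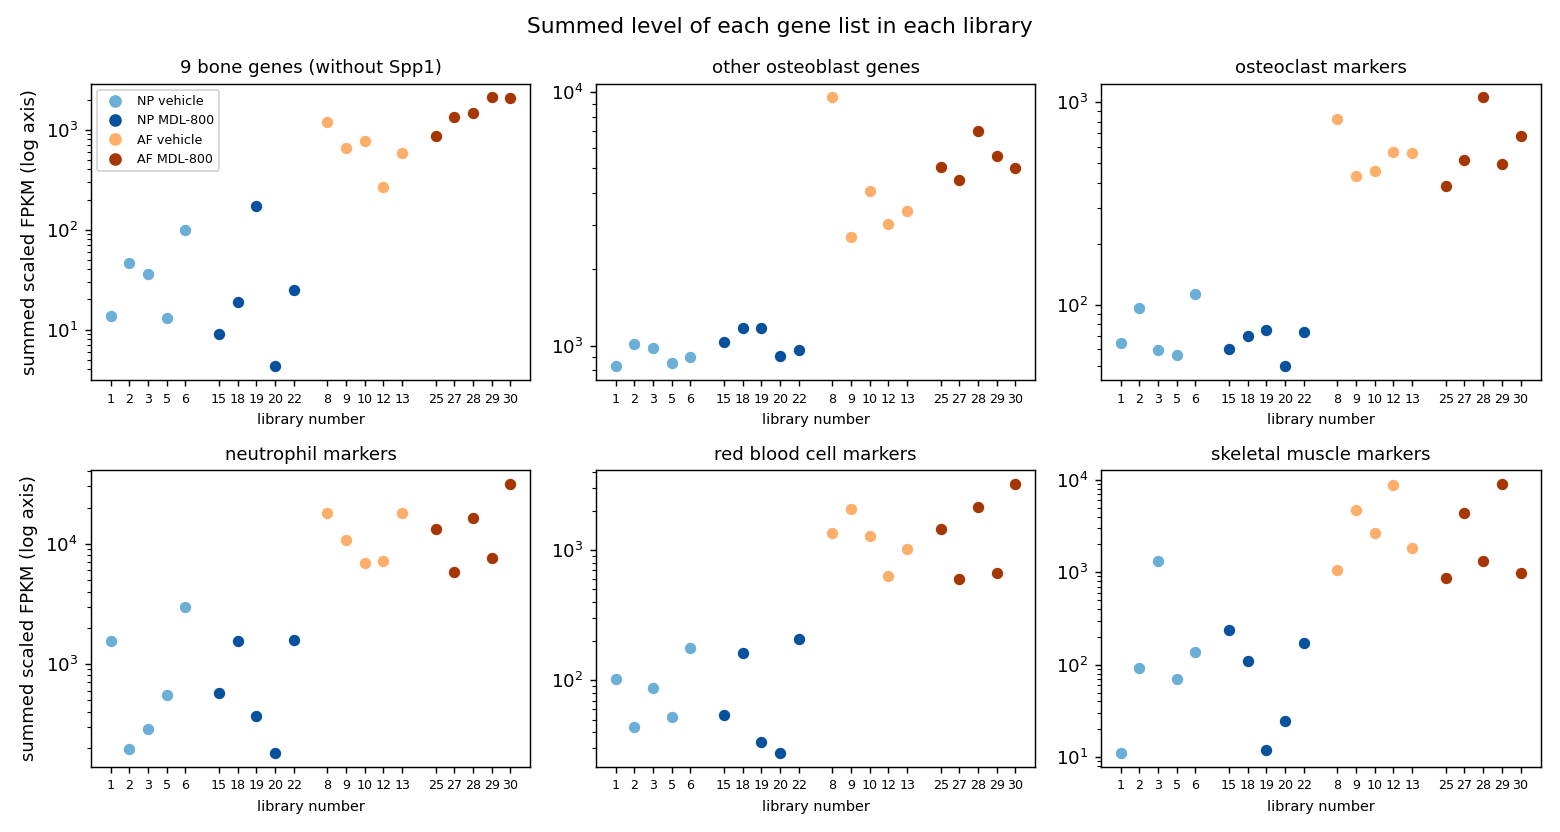
Summed scaled FPKM, on a log axis, of the bone genes without Spp1 and of 5 marker lists in each of the 20 libraries. AF libraries lie above NP libraries for the bone genes, and AF library 12 and AF library 29 have the highest muscle sums of their groups.

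Within the groups, single libraries were high or low for many of the 10 genes together. Summed without Spp1, the genes came to 13.2 to 98.6 in NP vehicle, 4.3 to 173.3 in NP MDL-800, 268.6 to 1188.6 in AF vehicle and 872.1 to 2120.7 in AF MDL-800. NP MDL-800 library 19 was the highest of its group for 8 genes and library 20 the lowest for 7. In AF vehicle, library 8 was the highest for 5 (Bglap, Bglap2, Ibsp, Dmp1 and Phex), library 13 for 4 (Sost, Mepe, Sp7 and Runx2), and library 12, with the highest muscle sum of its group (8807.9), the lowest for 7. In AF MDL-800, library 25 was the lowest for 8 genes, and library 29, the highest for Bglap and Bglap2, had the highest muscle sum (9032.8). The part of muscle tissue in these values was not tested.

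Over the 10 AF libraries, as deviations from the group means, Phex (r = 0.918) and Dmp1 (0.911) followed the mean of the other 9 genes most closely. Sp7 (0.811), Mepe (0.756), Bglap2 (0.733), Sost (0.656), Bglap (0.628) and Runx2 (0.523) came next, Ibsp (0.288) followed it weakly, and Spp1 (-0.324) ran the other way. Of 11054 other genes at a mean of 5 scaled FPKM or more in AF, those most like the mean of the 10 were Banp (Pearson r = 0.948, Spearman rho = 0.915, r = 0.744 without the 2 libraries farthest from the median), Mcf2l (in the same order 0.947, 0.915, 0.890), Prr3 (0.944, 0.976, 0.870), Gm42031 (0.942, 0.891, 0.847) and Letmd1 (0.939, 0.915, 0.934). None of these 5 is on the bone cell lists, and the ranking left out genes below that level. Without that limit, the 21 other osteoblast genes tested had a median r of 0.595 (18 positive, highest 0.909), and the 8 other osteocyte genes one of 0.219 (5 positive, highest 0.945). The median over the 11054 genes was 0.0708. The 5 genes were picked for the highest r, so the correlations are a description and carry no p-value, and the libraries share their tissue and their scaling.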

How the data were processed

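Per the labels' protocols, RNA of NP and AF tissue was depleted of ribosomal RNA and made into stranded libraries (input 50 ng, 14 PCR cycles). The authors deposited FPKM values for 51789 genes in 20 libraries, rounded to 2 decimals. STAR 2.7.11b and the build mm10 are named in the submitters' processing notes; the counting program and annotation are not given in the sources used here. All 20 columns were matched to samples by name, and no pair of libraries held identical values.

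Each library was divided by its median ratio to the gene-wise geometric mean, taken over the 11308 genes that reached 1 FPKM in all 20 libraries. The 16383 genes that reached 1 FPKM in 5 or more libraries were tested with limma 3.58.1 (R 4.3.3) on log2(scaled FPKM + 1), 2-sided, with a mean-variance trend and Benjamini-Hochberg adjustment over all genes (threshold 0.05), using only the 2 groups compared, or all 4 for the difference of effects. A count model was not applied, since FPKM are not counts. The script was tested on simulated data. Depth was estimated from the steps between the deposited FPKM of 6641 genes with single-exon transcripts of 400 to 1200 bases, where 79% to 84.2% of values lay within 0.15 of a whole read. Column names carry a number; all 5 vehicle numbers and 3 of the MDL-800 numbers occur in both tissues. The labels do not say whether a number marks a mouse, and no pairing was used. As deviations from the group means, same-numbered libraries correlated at -0.18 to 0.29 and differently numbered ones at -0.37 to 0.33, which does not settle it. If a number does mark a mouse, the tissue tests and the difference of effects treat 2 tissues of 1 mouse as independent. The 10 genes and the 11 other lists were chosen with earlier results of these data known. From each other list, up to 3 genes with the smallest p in the vehicle tissue comparison and up to 2 in each treatment comparison are named, and a gene named beyond these is marked in the text. A result on 1 other gene is not reported here. Alternatives were the deposited FPKM without scaling, quantile normalization, another pseudocount, other filters, no trend, all 4 groups in a fit and leaving out each library.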

Additional observations from a re-analysis of the deposited data

Results flagged for a closer look

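Of the 40 pairs of a bone gene and a group of 5 libraries, 4 held a library whose gap to its nearest neighbour exceeded 0.71 of the group's range. For normally distributed values such a gap arises in about 1 in 20 groups. The gaps were taken on scaled FPKM and not on the log2 scale of the tests, so that share need not hold here. Bglap and Bglap2 share much of their sequence, so their flags in the same library are not separate. Bglap in NP MDL-800 library 19 was at 82.24 scaled FPKM, against 0.497 to 11.3 in the others. Bglap2 in the same library was at 80.15, against 0.434 to 6.34. Bglap2 in NP vehicle library 6 was at 41.89, against 1.59 to 10.3. Ibsp in AF vehicle library 8 was at 348.8, against 91.2 to 121. Library 19 has the lowest estimated depth (12.7 M fragments), its neutrophil sum (369) was inside the range of its group, and its osteoclast sum (74.5) was the highest of its group, where the others were 49.5 to 73.0. NP library 6 had the highest neutrophil (2972.2) and osteoclast (112) sums of its group. The part of these in the values was not tested.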

How the results depend on the processing

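The 9 tissue calls held in vehicle and in MDL-800 mice under every alternative run and without any single library, and no bone gene was called in a treatment comparison or in the difference of effects under any of them. Spp1 in vehicle mice was called in the 2 fits given in the report. Over all genes, the 41 calls of MDL-800 against vehicle in NP became 18 with FPKM as deposited, 16 without a filter, 74 with a stricter filter, 18 without the trend and 4 with all 4 groups, and 2 to 189 leaving out 1 library: 2 without vehicle library 3 or MDL-800 library 22, 189 without vehicle library 6, and 4 to 25 without any other. In AF the 0 calls became 0 to 1, with 1 without MDL-800 library 25 or 29. In the difference of effects they became 0 to 1, with 1 without AF MDL-800 library 30.

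Differences near 0 changed sign. For MDL-800 against vehicle, Sp7 in NP came to 0.04 with a pseudocount of 0.1 and Spp1 in AF to 0.13 with quantile normalization. Leaving out 1 library, Bglap2 in NP ran from -1.17 to 0.34, Ibsp in NP from -0.81 to 0.0035, Sost in NP from -0.03 to 0.38, Sp7 in NP from -0.08 to 0.08 and Spp1 in AF from -0.19 to 0.04. In AF, Bglap ran from 1.19 to 1.75 and Bglap2 from 0.98 to 1.80.

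A replicate block on the number in the column names, added after seeing the data, was not the basis of any result. The labels do not say that the number marks a mouse. Same-numbered libraries correlated at -0.18 to 0.29 and differently numbered ones at -0.37 to 0.33. With this block 8783 genes were called between the tissues in vehicle mice (9127 without) and 7857 in MDL-800 mice (10290 without), where it rests on 3 pairs, and 9 bone genes in each. The estimated depth leaves levels under about 0.1 FPKM unresolved for the osteocyte genes in NP.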
